A study of Mus musculus with 9 samples.

Results

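The genes described here are 51 genes of mitosis, the spindle checkpoint and the kinetochore, taken by gene name from the 22496 genes deposited for ShhN IUE with wild type and the 23624 genes deposited for SmoM2 with wild type. All 51 were present in both tables, and all 51 passed the filter on low counts in both comparisons with wild type. The 9 libraries are bulk RNA-seq of cortex dissected from mice at postnatal day 0. The 3 ShhN IUE libraries came from mice given ShhN, the amino-terminal fragment of Sonic hedgehog (SHH) that signals, by in utero electroporation (IUE). The 3 SmoM2 libraries came from hGFAP-Cre, SmoM2f/+ mice, in which Cre driven by the human GFAP promoter switches on SmoM2, a constitutively active form of the SHH signal transducer Smoothened. The 3 wild-type libraries came from littermates and appear in both tables. All animals were of a mixed background drawn from C57BL/6J, 129S6 and CD1. The labels name no group electroporated without ShhN, so effects of electroporation and of ShhN cannot be told apart. Nor do they say that the replicates are separate animals, so the p-values measure only the spread between these libraries, which may be technical.

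Entry into mitosis is driven by the kinase CDK1 with B-type cyclins, after which condensin compacts the chromosomes and Polo and Aurora kinases build the bipolar spindle. Kinetochores, assembled on centromeric chromatin that holds the histone variant CENP-A, attach chromosomes to microtubules, and the spindle checkpoint holds back the anaphase-promoting complex until every chromosome is attached. Most of these genes are transcribed in G2 and M phase and are low in cells that have left the cycle, so in late embryonic and newborn cortex their RNA comes largely from dividing progenitors and glial precursors rather than from neurons. In bulk tissue, more cells of a dividing type and more RNA per cell cannot be told apart.

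Sequencing gave 15376071 to 19604672 counts per ShhN IUE library, 23625702 to 26923127 per SmoM2 library and 18610507 to 21694348 per wild-type library in the ShhN IUE table. Gli1, a transcriptional target of SHH signalling, had 26.0, 27.7 and 68.9 CPM (counts per 1000000 counts) in ShhN IUE libraries 1, 2 and 3, against 5.65, 9.13 and 7.75 CPM in wild type. In SmoM2, Gli1 had 47.3, 42.7 and 49.96 CPM, against 5.63, 9.14 and 7.71 CPM in wild type. ShhN IUE library 3 stood above the other ShhN IUE libraries for Gli1, and it also held 455 counts of Shh, against 51 and 52 in the others. Wild-type libraries 1, 2 and 3 of that table held 36, 62 and 31 counts of Shh. ShhN IUE libraries 1 and 2 had 2.59 and 3.09 CPM of Shh, against up to 2.82 CPM in wild type. Shh was thus clearly above wild type in ShhN IUE library 3 only. The edgeR test of Shh in ShhN IUE against wild type gave an adjusted p of 0.0693. The defining markers of cortical radial glia and of pyramidal neurons all had counts in every library.

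A gene is said below to have risen or fallen when the edgeR quasi-likelihood test gave an adjusted p (Benjamini-Hochberg, over all genes tested) under 0.05. In ShhN IUE cortex 45 of the 51 mitosis genes rose, 0 fell and 6 did not pass; over all 16180 genes tested, 16.1% rose and 17.2% fell. In SmoM2 cortex 45 of the 51 also rose, 0 fell and 6 did not pass, where 9.59% of all 16485 genes tested rose and 9.29% fell. DESeq2 also gave 0 falls in each comparison, and at an unadjusted p under 0.05 edgeR gave 0. The median log2 fold change of the 51 genes was 1.33 in ShhN IUE and 1.17 in SmoM2, beside -0.0038 and -0.0072 over all genes tested. Only 3.80% of all genes in ShhN IUE and 2.98% in SmoM2 lay above those medians. The rise exceeded 1 on the log2 scale for 37 genes in ShhN IUE and for 34 in SmoM2. Because both comparisons use the same wild-type libraries, their values are given side by side and nothing is read from their overlap. Without ShhN IUE library 3, 43 of the 51 genes rose in ShhN IUE, with a median log2 fold change of 1.23.

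**Figure D1:**
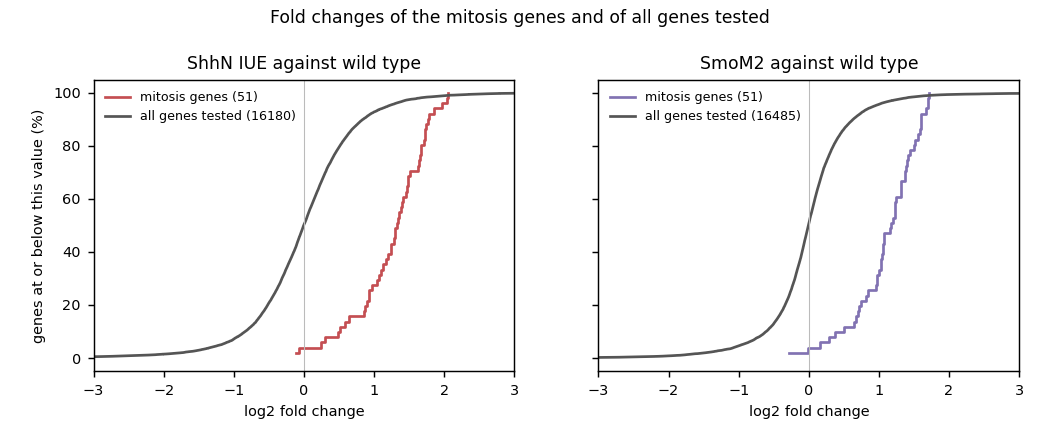
Cumulative share of genes (%, vertical axis) at or below each log2 fold change (horizontal axis), for the 51 mitosis genes (coloured steps) and all genes tested (grey line), in ShhN IUE (left) and SmoM2 (right) against wild type. The coloured steps lie to the right of the grey line along most of their length, with medians of 1.33 and 1.17 against -0.0038 and -0.0072.

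Library by library the groups were separated for most genes. All 3 ShhN IUE libraries lay above all 3 wild-type libraries for 48 of the 51 genes, where 24.5% of all genes tested did so, and below them for 0, where 24.9% did so. All 3 SmoM2 libraries lay above wild type likewise for 48 genes, where 20.4% of all genes tested did so, and below it for 0, where 19.7% did so. Summed over the 51 genes, the level was 1455, 1528 and 1770 CPM in ShhN IUE libraries 1, 2 and 3, against 640.4, 653 and 761 CPM in wild-type libraries 1, 2 and 3. In SmoM2 the sum was 1325, 1429 and 1709 CPM, against 641, 668 and 767 CPM in wild type. Library 3 was the highest of its group for 38 genes in ShhN IUE, for 48 in SmoM2 and for 34 in wild type of the ShhN IUE table.

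**Figure D2:**
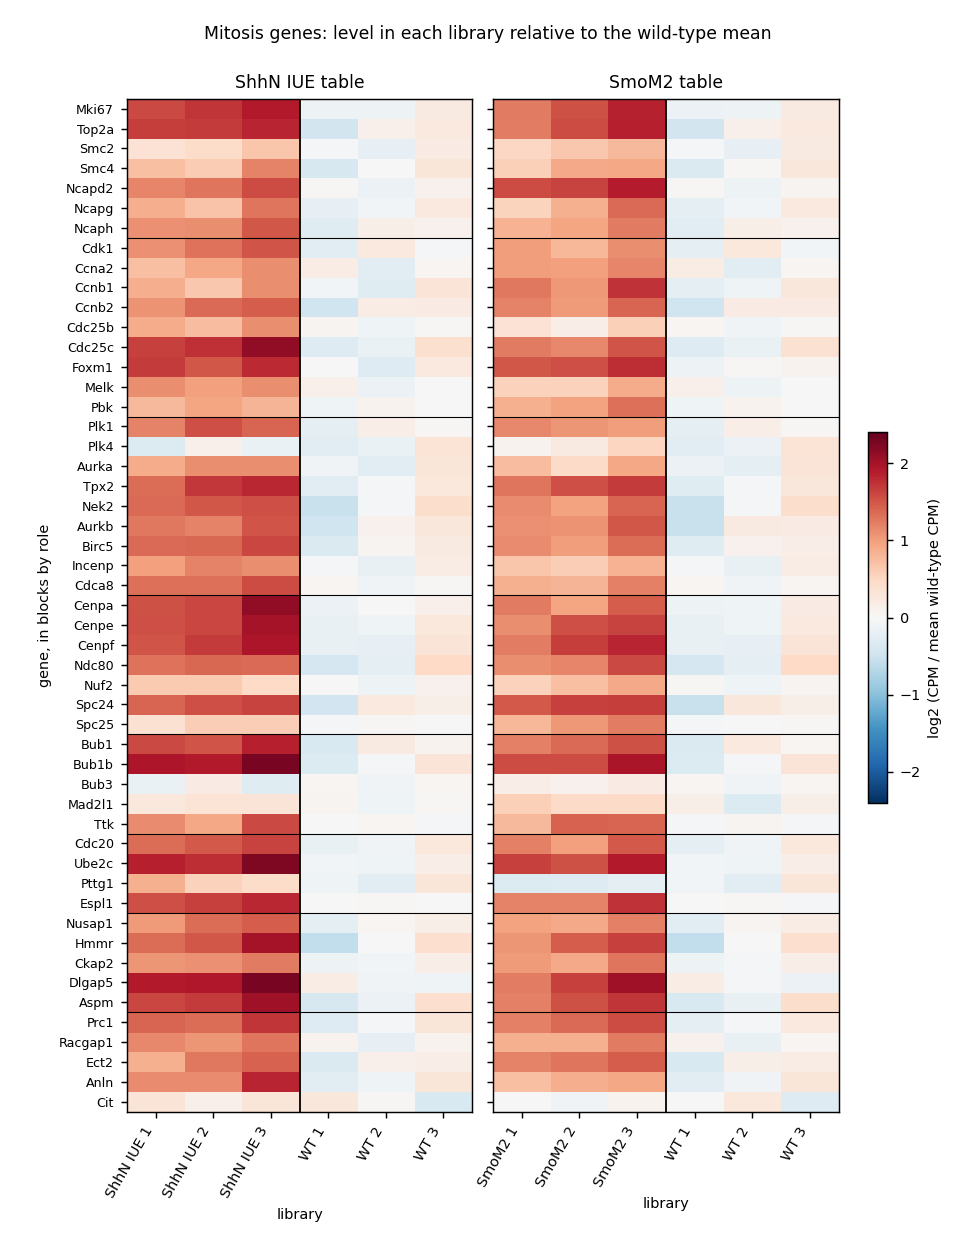
Level of each of the 51 genes (rows, in blocks by role) in every library (columns) of the ShhN IUE table (left) and the SmoM2 table (right), as log2 of CPM over the wild-type mean; red is above and blue below that mean. The ShhN IUE and SmoM2 columns are red for all but a few rows, among them Bub3, Plk4 and Cit.

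The promoters of genes of this class are known to carry CCAAT boxes, bound by NF-Y, and the cell cycle genes homology region (CHR), bound by MuvB complexes that hold B-MYB or FOXM1 in dividing cells. RefSeq promoter sequences (GRCm38.p6, 250 bases before to 50 after each start) were matched by symbol to 41 of the 51 genes, in 44 windows. The letters TTTGAA or TTCGAA on either strand were searched as the CHR, and CCAAT on either strand as the CCAAT box. CHR letters stood in 32 of 44 windows (72.7%), and in 19.2% of all 32851 windows. CCAAT stood in 33 of 44 windows (75%), and in 37.4% of all windows. Both stood in 30 windows (68.2%), and in 7.52% of all windows. Stretches of 200 bases before the start are shown for 5 genes, 5′ to 3′ along the gene's strand. Capitals mark the searched letters, also where they stand on the other strand. There the first CHR form is seen as TTCAAA, and a CCAAT box reads ATTGG in the printed direction. Mki67 (chr7:135716380-135716579, minus strand), Top2a (chr11:99024190-99024389, minus strand), Cdk1 (chr10:69352913-69353112, minus strand) and Cdc20 (chr4:118437344-118437543, minus strand) are genes that rose in both groups. Bub3 (chr7:131560170-131560369, plus strand) did not pass in either, and is shown because its window holds the same letters.
Mki67: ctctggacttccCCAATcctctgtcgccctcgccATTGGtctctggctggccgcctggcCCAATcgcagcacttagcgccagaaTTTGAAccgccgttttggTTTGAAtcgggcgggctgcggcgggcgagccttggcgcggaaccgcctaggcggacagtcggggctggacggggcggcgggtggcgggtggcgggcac
Top2a: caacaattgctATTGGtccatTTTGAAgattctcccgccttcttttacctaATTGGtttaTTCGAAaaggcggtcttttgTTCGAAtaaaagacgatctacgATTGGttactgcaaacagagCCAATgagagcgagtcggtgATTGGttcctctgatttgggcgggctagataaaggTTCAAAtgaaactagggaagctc
Cdk1: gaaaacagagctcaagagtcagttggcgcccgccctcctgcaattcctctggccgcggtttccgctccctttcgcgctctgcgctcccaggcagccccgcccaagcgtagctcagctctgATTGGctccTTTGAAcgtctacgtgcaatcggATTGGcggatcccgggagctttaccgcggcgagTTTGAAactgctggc
Cdc20: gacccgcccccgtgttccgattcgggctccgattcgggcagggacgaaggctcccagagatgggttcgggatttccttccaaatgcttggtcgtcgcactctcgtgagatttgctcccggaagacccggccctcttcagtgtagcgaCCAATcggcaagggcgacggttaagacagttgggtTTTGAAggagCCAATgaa
Bub3: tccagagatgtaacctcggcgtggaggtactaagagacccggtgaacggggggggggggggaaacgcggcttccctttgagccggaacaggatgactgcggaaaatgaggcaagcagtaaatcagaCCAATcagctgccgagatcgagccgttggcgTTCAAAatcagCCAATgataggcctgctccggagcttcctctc

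The letters were not found in the windows of every gene that rose. Of the 27 genes with a window that held both motifs, 25 rose and 2 did not pass in each comparison with wild type. The 2 were Bub3 and Spc25 in ShhN IUE, and Bub3 and Cdc25b in SmoM2. Neither motif was in the window of 9 genes, of which 5 rose in both comparisons (Birc5, Melk, Ncaph, Nuf2 and Nusap1) and 4 passed in neither (Cit, Mad2l1, Plk4 and Pttg1). The median log2 fold change of the genes with both motifs was 1.39 in ShhN IUE and 1.23 in SmoM2; that of the 9 genes with neither was 0.64 in ShhN IUE and 0.67 in SmoM2. These are letter matches in short windows, given as a description with no test.

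Among markers of proliferation and genes of chromosome compaction, all 7 rose in both groups, with a median log2 fold change of 1.24 in ShhN IUE and 1.02 in SmoM2. Mki67, which encodes the Ki-67 protein that coats mitotic chromosomes and marks cycling cells, had 141, 153 and 175 CPM in ShhN IUE libraries, against 42.7, 43.1 and 54.5 CPM in wild type. In SmoM2, Mki67 had 111, 134 and 169 CPM, against 42.6, 43.1 and 54.3 CPM in wild type. Every library of both groups lay far above the highest wild-type library. Mki67 had a log2 fold change of 1.74 ± 0.14 in ShhN IUE (SE, adjusted p = 0.000517) and 1.56 ± 0.17 in SmoM2 (adjusted p = 0.000954).

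Top2a encodes the DNA topoisomerase that untangles sister chromatids. It had 126, 126 and 140.1 CPM in ShhN IUE libraries, against 29.3, 43.2 and 46.3 CPM in wild type, and rose by 1.72 ± 0.17 on the log2 scale (adjusted p = 0.000848). SmoM2 libraries held 92.5, 117 and 144 CPM of Top2a, against 29.0, 43.0 and 46.0 CPM in wild type, a log2 fold change of 1.58 ± 0.21 (adjusted p = 0.00218). SmoM2 library 1 was the lowest of its group for Top2a and for Mki67, and still lay above all wild-type libraries.

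The subunits of condensin I did not move by equal amounts. The non-SMC subunit Ncapd2 rose by 1.35 ± 0.14 on the log2 scale in ShhN IUE and by 1.70 ± 0.11 in SmoM2, where it was the third largest rise of the 51 (adjusted p = 0.000159). Its level was 121, 125 and 150 CPM in SmoM2 libraries, against 41.7, 37.5 and 42.8 CPM in wild type. The other non-SMC subunits, Ncaph and Ncapg, rose by 1.24 ± 0.19 and 0.97 ± 0.22 in ShhN IUE, and by 1.02 ± 0.18 and 0.96 ± 0.24 in SmoM2. Smc4 and Smc2, the core ATPases that condensin I shares with condensin II, rose by 0.86 ± 0.21 and 0.49 ± 0.14 in ShhN IUE, and by 0.81 ± 0.17 and 0.64 ± 0.13 in SmoM2. Smc2 had the smallest log2 fold change of the genes that rose in each group. Differences between genes were not tested.

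All 9 genes of mitotic entry rose in ShhN IUE, with a median log2 fold change of 1.07, and 8 of the 9 rose in SmoM2, with a median of 1.06. Cdk1, the kinase that triggers mitosis, had 15.8, 18.2 and 20.98 CPM in ShhN IUE libraries, against 6.22, 8.77 and 7.25 CPM in wild type (log2 fold change 1.30 ± 0.20, adjusted p = 0.00265). In SmoM2 libraries Cdk1 had 16.7, 14.5 and 18.3 CPM, against 7.23, 9.96 and 7.99 CPM in wild type (0.97 ± 0.17, adjusted p = 0.00678). Neither group overlapped wild type. Foxm1, a transcription factor of G2 and M phase genes, had 38.4, 34.1 and 41.8 CPM in ShhN IUE libraries, against 12.2, 9.72 and 14.3 CPM in wild type, and 32.4, 34.1 and 39.3 CPM in SmoM2 libraries, against 10.6, 11.8 and 12.3 CPM in wild type. It rose by 1.66 ± 0.17 on the log2 scale in ShhN IUE (adjusted p = 0.000863) and by 1.60 ± 0.12 in SmoM2 (adjusted p = 0.00028), with no overlap in either.

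The cyclins gave a mixed order. Ccnb1, which encodes the main cyclin partner of CDK1, had 8.64, 7.48 and 10.3 CPM in ShhN IUE libraries, against 4.51, 3.86 and 5.88 CPM in wild type, and rose by 0.89 ± 0.24 on the log2 scale (adjusted p = 0.0225). In SmoM2 it had 10.1, 8.56 and 13.995 CPM, against 3.61, 3.91 and 5.03 CPM in wild type, and rose by 1.38 ± 0.24 (adjusted p = 0.00613). The groups did not overlap. In ShhN IUE the call did not hold when library 1 or 3 of ShhN IUE or library 1 or 2 of wild type was left out (adjusted p up to 0.0672). Ccnb2 rose by 1.30 ± 0.24 in ShhN IUE and 1.21 ± 0.23 in SmoM2, and Ccna2, the cyclin of S phase and G2, by 0.93 ± 0.16 and 1.06 ± 0.13.

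The Cdc25 phosphatases remove the inhibitory phosphates from CDK1. Cdc25b had 48.8, 44.0 and 56.9 CPM in ShhN IUE libraries, against 27.3, 24.5 and 26.7 CPM in wild type, and rose by 0.93 ± 0.13 on the log2 scale (adjusted p = 0.00198). In SmoM2 it had 35.4, 30.8 and 40.9 CPM, against 28.8, 26.1 and 28.2 CPM in wild type, with no overlap, but a log2 fold change of 0.37 ± 0.12 that did not pass (adjusted p = 0.0698). Cdc25c rose in both, by 1.86 ± 0.27 in ShhN IUE and 1.31 ± 0.24 in SmoM2. The kinases Melk and Pbk, which are expressed in dividing progenitors, rose by 1.07 ± 0.19 and 0.85 ± 0.16 in ShhN IUE, and by 0.67 ± 0.19 and 1.06 ± 0.17 in SmoM2. The call of Melk in SmoM2 was weak (adjusted p = 0.0385) and was lost without any of 5 of the 6 libraries in that comparison.

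Of the 9 Polo and Aurora kinases and their partners, 8 rose in each group, with a median log2 fold change of 1.39 in ShhN IUE and 1.08 in SmoM2. Plk1, the Polo kinase of centrosome maturation and spindle assembly, had 15.7, 20.1 and 18.2 CPM in ShhN IUE libraries, against 5.91, 7.68 and 7.03 CPM in wild type (log2 fold change 1.39 ± 0.18, adjusted p = 0.00167). SmoM2 libraries had 15.2, 14.3 and 13.7 CPM of Plk1, against 5.89, 7.64 and 6.95 CPM in wild type (1.08 ± 0.16, adjusted p = 0.00317). Every ShhN IUE and SmoM2 library held more than the highest wild-type library. Aurora B, the kinase of the chromosomal passenger complex, is encoded by Aurkb, which had 12.4, 11.8 and 14.6 CPM in ShhN IUE libraries, against 3.68, 5.54 and 6.21 CPM in wild type (1.33 ± 0.24, adjusted p = 0.00501). Aurkb had 11.7, 11.6 and 15.3 CPM in SmoM2 libraries, against 3.77, 6.32 and 6.24 CPM in wild type (1.24 ± 0.23, adjusted p = 0.00927). The other subunits of that complex, Birc5 (survivin), Cdca8 (borealin) and Incenp, rose by 1.46 ± 0.20, 1.41 ± 0.14 and 1.10 ± 0.13 in ShhN IUE, and by 1.16 ± 0.18, 0.97 ± 0.15 and 0.70 ± 0.13 in SmoM2.

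Aurora A (Aurka), its activator Tpx2 and the centrosome kinase Nek2 rose by 1.04 ± 0.20, 1.63 ± 0.18 and 1.47 ± 0.26 on the log2 scale in ShhN IUE, and by 0.72 ± 0.21, 1.52 ± 0.17 and 1.17 ± 0.25 in SmoM2. Plk4, the kinase that starts centriole duplication, was the exception in each group. It had 9.30, 12.7 and 10.4 CPM in ShhN IUE libraries, against 9.85, 10.5 and 14.7 CPM in wild type, a log2 fold change of -0.11 ± 0.22 (adjusted p = 0.719). SmoM2 libraries had 12.4, 13.6 and 16.7 CPM of Plk4, against 9.81, 10.6 and 14.7 CPM in wild type, a log2 fold change of 0.28 ± 0.20 (adjusted p = 0.348). Plk4 levels overlapped wild type in both groups.

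**Figure D3:**
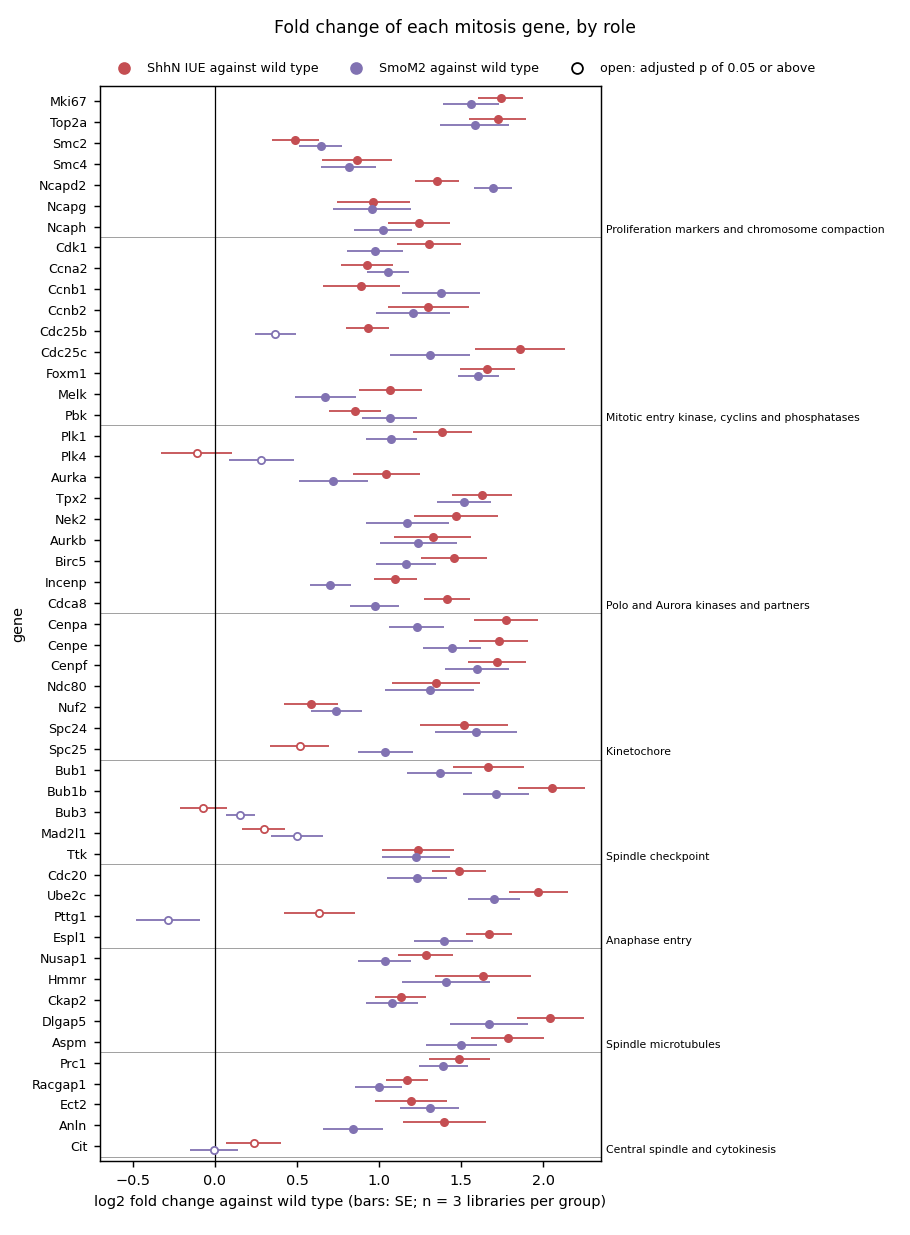
Log2 fold change of each gene against wild type (horizontal axis, bars show SE, n = 3 libraries per group) in ShhN IUE (red) and SmoM2 (purple), in blocks by role; open points have an adjusted p of 0.05 or above. Bub1b at 2.05 in ShhN IUE is the largest value, and Pttg1 at -0.29 in SmoM2 the smallest.

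Kinetochore genes rose in 6 of 7 cases in ShhN IUE, with a median log2 fold change of 1.52, and in 7 of 7 in SmoM2, with a median of 1.31. Ndc80, the microtubule-binding subunit of the outer kinetochore, had 7.88, 8.37 and 8.20 CPM in ShhN IUE libraries, against 2.44, 2.73 and 4.45 CPM in wild type (log2 fold change 1.35 ± 0.27, adjusted p = 0.00793). In SmoM2 libraries it had 6.90, 7.16 and 9.62 CPM, against 2.43, 2.73 and 4.43 CPM in wild type (1.31 ± 0.27, adjusted p = 0.013); this call was lost without SmoM2 library 3 (adjusted p = 0.0621). Cenpe, a kinesin that carries chromosomes to the spindle equator, had 30.2, 31.3 and 40.9 CPM in ShhN IUE libraries, against 9.13, 9.54 and 12.2 CPM in wild type, and rose by 1.73 ± 0.18 on the log2 scale (adjusted p = 0.000876). Cenpe had 22.2, 29.8 and 31.3 CPM in SmoM2 libraries, against 9.04, 9.51 and 12.1 CPM in wild type, and rose by 1.44 ± 0.18 (adjusted p = 0.00165). For both genes every ShhN IUE and SmoM2 library lay above every wild-type library.

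Within the 4-subunit NDC80 complex the values were uneven. Spc24 rose by 1.52 ± 0.27 on the log2 scale in ShhN IUE and by 1.59 ± 0.25 in SmoM2, and Nuf2, the direct partner of Ndc80, rose by 0.58 ± 0.16 and 0.74 ± 0.15. Spc25, the partner of Spc24, had 7.88, 9.26 and 9.20 CPM in ShhN IUE libraries, against 6.02, 6.27 and 6.10 CPM in wild type, and did not pass (0.52 ± 0.18, adjusted p = 0.0573). In SmoM2 libraries Spc25 had 10.3, 12.2 and 13.9 CPM, against 5.78, 5.96 and 6.02 CPM in wild type, and rose by 1.04 ± 0.17 (adjusted p = 0.00483). Neither group overlapped wild type for Spc25. Cenpa, the centromeric histone H3 variant, and Cenpf, a large kinetochore protein, rose by 1.77 ± 0.20 and 1.72 ± 0.18 in ShhN IUE, and by 1.23 ± 0.17 and 1.59 ± 0.19 in SmoM2.

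Of the 5 spindle checkpoint genes, 3 rose and 2 did not pass in each group, with a median log2 fold change of 1.24 in ShhN IUE and 1.23 in SmoM2. Bub1b (chr2:118598211-118641591), which encodes the checkpoint protein BubR1, had the largest log2 fold change of the 51 genes in both comparisons. It had 26.1, 25.5 and 33.2 CPM in ShhN IUE libraries, against 5.39, 6.63 and 8.40 CPM in wild type, and rose 4.15-fold (log2 2.05 ± 0.20, adjusted p = 0.000842). SmoM2 libraries had 20.0, 20.0 and 26.5 CPM of Bub1b, against 5.37, 6.55 and 8.37 CPM in wild type, a 3.28-fold rise (log2 1.71 ± 0.20, adjusted p = 0.00138). The checkpoint kinases Bub1 and Ttk (MPS1) rose by 1.67 ± 0.22 and 1.24 ± 0.22 in ShhN IUE, and by 1.37 ± 0.20 and 1.23 ± 0.21 in SmoM2.

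Bub3 (chr7:131560391-131571898), the partner of both Bub1 and BubR1, passed in neither comparison. It had 55.0, 70.0 and 50.3 CPM in ShhN IUE libraries, against 63.3, 57.7 and 63.3 CPM in wild type, so the groups overlapped (log2 fold change -0.07 ± 0.14, adjusted p = 0.724). SmoM2 libraries had 67.7, 65.4 and 69.6 CPM of Bub3, against 62.5, 57.0 and 62.7 CPM in wild type, without overlap but short of the threshold (0.15 ± 0.09, adjusted p = 0.262). Mad2l1, the checkpoint effector MAD2, had 17.8, 18.7 and 18.6 CPM in ShhN IUE libraries, against 15.6, 13.9 and 15.3 CPM in wild type (0.30 ± 0.13, adjusted p = 0.115). In SmoM2 libraries Mad2l1 had 19.1, 17.5 and 17.5 CPM, against 14.1, 10.2 and 14.1 CPM in wild type (0.50 ± 0.16, adjusted p = 0.0625). Mad2l1 was higher in all libraries of both groups but did not pass by edgeR, and it passed by DESeq2 in SmoM2 (adjusted p = 0.0321).

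Of the 4 genes of anaphase entry, 3 rose in each group, with a median over the 4 of 1.58 in ShhN IUE and 1.31 in SmoM2. Cdc20, the activator of the anaphase-promoting complex that the checkpoint inhibits, had 24.7, 27.2 and 29.9 CPM in ShhN IUE libraries, against 8.56, 9.13 and 11.5 CPM in wild type (log2 fold change 1.49 ± 0.16, adjusted p = 0.000997). SmoM2 libraries had 22.5, 19.2 and 26.8 CPM of Cdc20, against 8.42, 9.14 and 11.6 CPM in wild type (1.23 ± 0.18, adjusted p = 0.00327). The groups were again fully separated. Ube2c, the ubiquitin-conjugating enzyme of that complex, rose 3.92-fold in ShhN IUE (log2 1.97 ± 0.18) and 3.25-fold in SmoM2 (log2 1.70 ± 0.16). Espl1, or separase, the protease that cuts cohesin at anaphase, rose by 1.67 ± 0.14 in ShhN IUE and by 1.39 ± 0.18 in SmoM2.

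Pttg1 (chr11:43420250-43426251) encodes securin, the inhibitor of separase. It had 12.4, 10.1 and 9.33 CPM in ShhN IUE libraries, against 6.38, 5.77 and 8.35 CPM in wild type, with no overlap and a log2 fold change of 0.64 ± 0.22 (adjusted p = 0.0534). SmoM2 libraries had 5.58, 5.59 and 5.90 CPM of Pttg1, against 6.61, 5.73 and 8.53 CPM in wild type, an overlapping range with a log2 fold change of -0.29 ± 0.19 (adjusted p = 0.335). The ShhN IUE value passed by DESeq2 and without wild-type library 3. Plk4, Pttg1, Cit, Bub3 and Mad2l1 are the 5 genes that passed in neither comparison with wild type.

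All 5 genes of spindle microtubules rose in both groups, with a median log2 fold change of 1.63 in ShhN IUE and 1.41 in SmoM2. Aspm, a spindle pole protein whose loss causes microcephaly, had 36.9, 38.5 and 49.4 CPM in ShhN IUE libraries, against 9.28, 10.9 and 16.04 CPM in wild type (log2 fold change 1.78 ± 0.22, adjusted p = 0.00143). In SmoM2 it had 30.6, 38.0 and 43.4 CPM, against 10.2, 11.7 and 17.7 CPM in wild type (1.501 ± 0.22, adjusted p = 0.00317). Aspm varied within groups too, highest in library 3 of each. Dlgap5, a microtubule stabiliser also called HURP, rose 4.12-fold in ShhN IUE (log2 2.04 ± 0.20) and 3.18-fold in SmoM2 (log2 1.67 ± 0.24). Hmmr, Nusap1 and Ckap2, which bind or bundle spindle microtubules, rose by 1.63 ± 0.29, 1.28 ± 0.17 and 1.13 ± 0.16 in ShhN IUE, and by 1.41 ± 0.27, 1.04 ± 0.16 and 1.08 ± 0.16 in SmoM2.

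Of 5 genes of the central spindle and cytokinesis, 4 rose in each group, with a median log2 fold change of 1.20 in ShhN IUE and 1.00 in SmoM2. Anln, or anillin, the scaffold of the contractile ring, had 14.997, 14.96 and 24.2 CPM in ShhN IUE libraries, against 5.70, 6.41 and 8.40 CPM in wild type (log2 fold change 1.40 ± 0.25, adjusted p = 0.0054). SmoM2 libraries had 11.2, 12.5 and 12.9 CPM of Anln, against 5.68, 6.42 and 8.37 CPM in wild type (0.84 ± 0.18, adjusted p = 0.0166); this call was lost without SmoM2 library 2 or 3, with adjusted p up to 0.0766. ShhN IUE library 3 was well above the others for Anln. Prc1, which bundles the antiparallel microtubules of the midzone, rose by 1.49 ± 0.18 in ShhN IUE and 1.39 ± 0.15 in SmoM2. Racgap1 and Ect2, which activate RhoA at the equator, rose by 1.17 ± 0.13 and 1.20 ± 0.22 in ShhN IUE, and by 1.00 ± 0.14 and 1.31 ± 0.18 in SmoM2. Cit (chr5:115845278-116008947), the gene of citron kinase, had 34.5, 30.4 and 34.1 CPM in ShhN IUE libraries, against 33.7, 28.7 and 21.6 CPM in wild type (0.24 ± 0.17, adjusted p = 0.308). In SmoM2 libraries Cit had 26.3, 25.1 and 28.0 CPM, against 26.5, 31.5 and 21.6 CPM in wild type (-0.0054 ± 0.15, adjusted p = 0.984). These counts are per gene and do not tell its transcripts apart. Cit overlapped wild type in both groups.

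**Figure D4:**
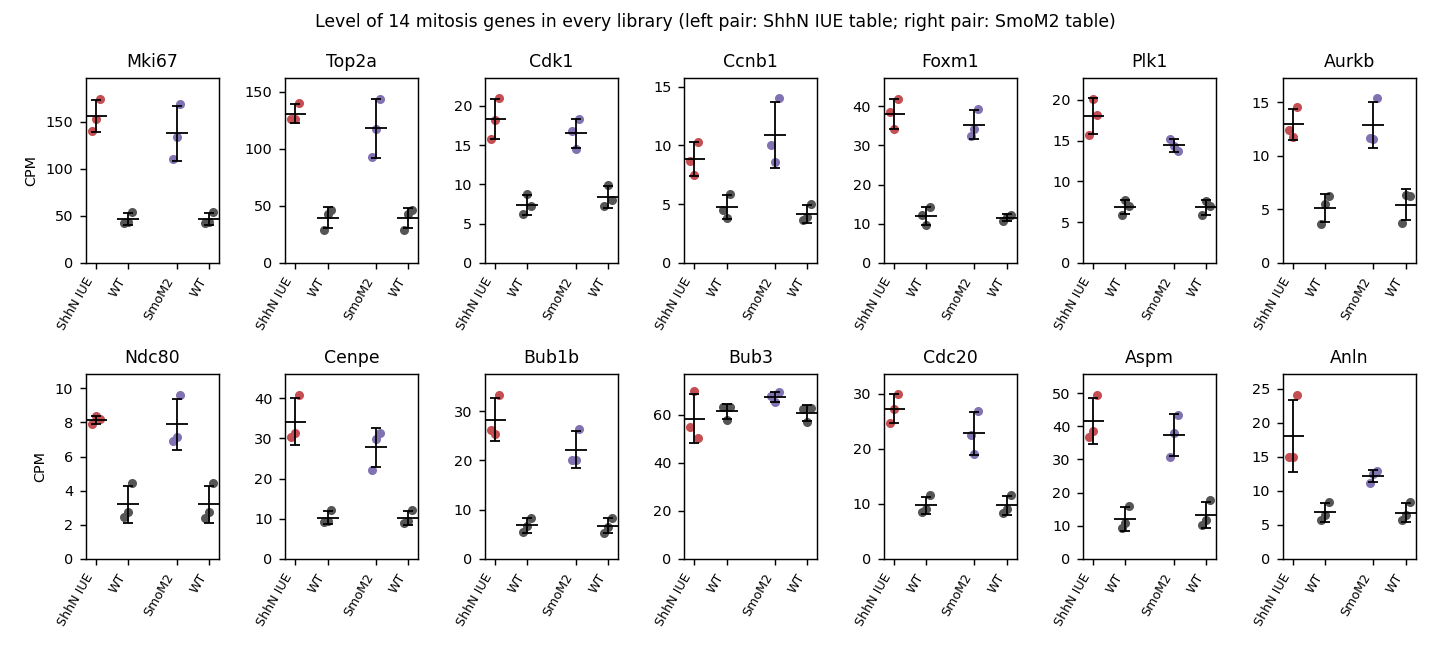
Level (CPM, vertical axes from 0) of 14 genes in every library, with mean and SD as black bars (n = 3), in the ShhN IUE table (left pair of groups) and the SmoM2 table (right pair). For 13 of the 14 genes all ShhN IUE and SmoM2 points lie above their wild-type points; for Bub3 the ShhN IUE and wild-type points overlap.

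Of the 45 genes that rose in each comparison, 42 in ShhN IUE and 36 in SmoM2 also rose under every alternative setting in which they were tested. There were 11 settings, of which the fit to genes with agreeing wild-type counts left out 8 of the 51 genes. In ShhN IUE the calls of Nuf2 and Smc2 missed under 5 settings each (adjusted p up to 0.101 for Nuf2 and 0.11 for Smc2). Without SmoM2 library 3, the calls of Anln, Aurka, Melk, Ncapg, Ndc80, Nek2, Nuf2, Smc2 and Smc4 were lost and 36 genes rose. Aurka missed without any of 5 libraries of that comparison (adjusted p up to 0.171).

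Levels were compared between genes by FPKM, which the authors scaled by gene length. The median over the 51 genes was 3.76 FPKM in ShhN IUE and 1.39 FPKM in wild type, and 3.13 FPKM in SmoM2 and 1.36 FPKM in wild type of that table. Bub3, at 28.8 ± 4.64 FPKM in ShhN IUE and 29.4 ± 0.843 FPKM in wild type (SD, n = 3 each), had the highest FPKM of the 51 in wild type. Incenp followed at 13.7 ± 1.03 FPKM in ShhN IUE and 6.22 ± 0.667 FPKM in wild type. Mki67 had 15.8 ± 2.05 FPKM in ShhN IUE and 4.57 ± 0.64 FPKM in wild type, and 13.8 ± 2.94 FPKM in SmoM2. The lowest FPKM in wild type was that of Dlgap5, at 1.53 ± 0.271 FPKM in ShhN IUE and 0.358 ± 0.0329 FPKM in wild type. The order of genes by FPKM depends on the lengths behind it. The length implied by the deposited counts and FPKM was 2055 bases for Bub3 and 9719 for Dlgap5, where GENCODE M21 gives 7006 and 6805 exonic bases. The authors' deposited table marks 38 of the 51 genes as up in ShhN IUE, where it marks 5.16% of all its genes so, and 37 as up in SmoM2, where it marks 3.03%. It marks none of the 51 as down in either.

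Some counts are less certain than others. Wild-type counts differed between the deposited tables for 8 of the 51 genes, by over 0.1 on the log2 scale: Prc1, Cenpa, Cdk1, Racgap1, Aspm, Nusap1, Ccnb1 and Mad2l1. The largest gap was in Prc1, with 749 wild-type counts in the ShhN IUE table and 925 in the SmoM2 table. All 8 were tested against wild type within each table. Of the 51 genes, 5 share over 10% of their exonic bases with a gene on the other strand in the GENCODE M21 annotation, led by Ube2c (22.8%, with Tnnc2) and followed by Ncapg, Cdc25c, Ccna2 and Prc1. No source used here says whether counting used strand, so reads of those overlaps cannot be told apart. In all, 14 of the 51 genes share some exonic bases with another gene. Ncapd2, Foxm1 and Top2a do so with genes on the same strand (7.53%, 4.19% and 1.35%), where strand would not separate the reads.

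Genes of the same machinery outside the 51 were counted in the same way. From each list, the 2 genes with the smallest adjusted p in each comparison and every fall are named. A gene named for a single group is therefore not shown to be particular to it. Of 116 such genes tested, from 6 lists, 51 rose, 4 fell and 61 did not pass in ShhN IUE, and 39 rose, 0 fell and 77 did not pass in SmoM2. Over all genes tested, 16.1% rose and 17.2% fell in ShhN IUE, and 9.59% rose and 9.29% fell in SmoM2. The counts of each list below are to be read beside these shares. By edgeR at an unadjusted p under 0.05, 6 of the 116 were lower in ShhN IUE and 2 in SmoM2, and by DESeq2 with adjustment 4 fell in ShhN IUE and 0 in SmoM2. Of other spindle and cytokinesis genes, 25 of 32 rose in ShhN IUE and 22 of 32 in SmoM2, with medians of 1.02 and 0.96 on the log2 scale. Numa1, which anchors spindle poles, rose by 1.21 ± 0.09 in ShhN IUE, and Troap, or tastin, by 2.06 ± 0.24 in SmoM2. Fam64a, a regulator of the metaphase-to-anaphase transition, rose by 1.82 ± 0.15 in ShhN IUE and 1.35 ± 0.16 in SmoM2.

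Other kinetochore and centromere genes rose in 11 of 29 cases in ShhN IUE and in 8 of 29 in SmoM2, with medians of 0.48 and 0.49. Sgol1, the shugoshin that protects centromeric cohesin, rose by 1.44 ± 0.21 in ShhN IUE, and Zwint, an outer kinetochore protein, fell by 0.39 (log2, SE 0.08, adjusted p = 0.0098). Hjurp, the chaperone that loads CENP-A, rose by 2.57 ± 0.22 in SmoM2, and Casc5, the kinetochore scaffold KNL1, by 1.27 ± 0.21. Of other checkpoint genes, 3 of 10 rose in ShhN IUE and 2 of 10 in SmoM2. Kntc1 and Spdl1, which recruit dynein and checkpoint proteins to kinetochores, rose by 1.58 ± 0.20 and 1.30 ± 0.26 in ShhN IUE, and by 1.29 ± 0.17 and 0.95 ± 0.24 in SmoM2.

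Of 17 subunits and regulators of the anaphase-promoting complex, 3 rose and 1 fell in ShhN IUE and 1 rose in SmoM2, with a median log2 fold change of 0.12 in each. The rises are near the shares of all genes tested that rose, 16.1% in ShhN IUE and 9.59% in SmoM2. Nothing is therefore read from these counts about the complex. Anapc2, the cullin subunit, rose by 0.46 ± 0.09 in ShhN IUE and 0.31 ± 0.08 in SmoM2; Anapc13 rose by 1.03 ± 0.18 and Cdc27 fell by 0.47 (SE 0.15, adjusted p = 0.0457) in ShhN IUE. In SmoM2 Anapc10 had a log2 fold change of 0.35 ± 0.13 (adjusted p = 0.0931). Condensin II and cohesin genes rose in 4 of 14 cases in ShhN IUE and 2 of 14 in SmoM2. Ncaph2, a condensin II subunit, rose by 0.77 ± 0.10 in ShhN IUE, Esco2, a cohesin acetyltransferase, by 1.31 ± 0.20 in SmoM2, and Cdca5, or sororin, by 1.16 ± 0.22 in ShhN IUE and 0.99 ± 0.19 in SmoM2. Of 14 other genes of entry control, 5 rose and 2 fell in ShhN IUE and 4 rose in SmoM2. The B-MYB gene Mybl2 rose by 1.28 ± 0.21 in ShhN IUE, Cdk2 by 1.27 ± 0.22 in ShhN IUE and 1.02 ± 0.20 in SmoM2, and Pkmyt1, a kinase that inhibits CDK1, by 0.76 ± 0.16 in SmoM2. Arpp19, an inhibitor of the phosphatase that opposes CDK1, fell by 0.57 (SE 0.12, adjusted p = 0.0107) and Lin54, the DNA-binding MuvB subunit, by 0.74 (SE 0.18, adjusted p = 0.0172) in ShhN IUE.

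Markers of 3 precursor cell types were in part higher in the groups where the mitosis genes were higher. Those of a further progenitor type, pyramidal intermediate progenitors, differed between the groups and are given in the next paragraph. Over all genes tested, 16.1% rose in ShhN IUE and 9.59% in SmoM2. Radial glia markers rose in 6 of 10 cases in ShhN IUE, with a summed level of 1152 to 1393 CPM, against 635 to 926 CPM in wild type; in SmoM2 5 of 10 rose and 1 fell, at 1154 to 1267 CPM, against 644 to 877 CPM in wild type. Markers of the olfactory bulb interneuron lineage rose in 6 of 7 cases in each group, at 696 to 1013 CPM in ShhN IUE, against 260.4 to 310.5 CPM in wild type, and 803 to 875 CPM in SmoM2, against 271 to 323 CPM in wild type. Oligodendrocyte precursor markers rose in 5 of 6 cases in each, at 459 to 578 CPM in ShhN IUE, against 279 to 316 CPM in wild type, and 527 to 582 CPM in SmoM2, against 278 to 317 CPM in wild type. The summed levels of these 3 lists did not overlap wild type in either group. Within groups the libraries did not always rank alike. In wild type of the ShhN IUE table, library 3 had the highest mitosis sum (761 CPM) and the lowest radial glia sum (635 CPM). In ShhN IUE, library 3 was the highest for both (1770 and 1393 CPM). The part of these 3 cell types in the rise of the mitosis genes was not tested.

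The remaining lists gave a mixed picture. Over all genes tested, 16.1% rose and 17.2% fell in ShhN IUE, and 9.59% rose and 9.29% fell in SmoM2. A rise of 1 marker in a list of 6 or 7 is near these shares, so nothing is read from it. Pyramidal intermediate progenitor markers rose in 2 of 5 cases in ShhN IUE, at 134 to 184 CPM, against 75.2 to 112 CPM in wild type, without overlap. The 2 were Neurog2 and Btg2. Eomes, at 0.76 ± 0.42 on the log2 scale (adjusted p = 0.192), did not pass in ShhN IUE, nor did Insm1 or Mfap4. In SmoM2 1 of 5 rose and 1 fell, at 100.4 to 129 CPM, against 77.0 to 111 CPM in wild type, with overlap. There Btg2 rose by 1.46 ± 0.19 on the log2 scale and Eomes fell by 1.45 (SE 0.25, adjusted p = 0.00623). Pyramidal neuron markers fell in 2 of 6 cases in each group, with overlapping sums. Astrocyte markers rose in 3 of 6 cases and fell in 1 in ShhN IUE, and rose in 2 of 6 in SmoM2. Microglia markers, which belong to cells that also divide at this age, rose in 1 of 7 cases in each group, at 58.1 to 81.9 CPM in ShhN IUE, against 30.0 to 65.0 CPM in wild type, and 59.6 to 77.8 CPM in SmoM2, against 29.2 to 62.4 CPM in wild type. Endothelial and mural markers rose in 1 of 6 cases in ShhN IUE and in 0 of 6 in SmoM2, and red blood cell markers in 0 of 4 in ShhN IUE and 2 of 5 in SmoM2. The 2 were Alas2, at 1.00 ± 0.30 on the log2 scale, and Hba-a2, at 9.16 ± 0.57. The related Hba-a1, at 0.30 ± 0.33, did not pass in SmoM2, nor did Hbb-bs or Hbb-bt. The cause of the gap between Hba-a2 and Hba-a1 was not tested. Meningeal markers rose in none of 6 in either group, but their sums varied widely. In ShhN IUE libraries 1, 2 and 3 they were at 39.4, 62.7 and 728 CPM, against 46.3, 707 and 229 CPM in wild type. In SmoM2 they were at 199 to 380.2 CPM, against 33.2 to 558 CPM in wild type. ShhN IUE library 3 was also the highest of its group for Gli1 and Shh. A link between the meningeal sums and the mitosis genes was not tested. Among the markers, Hba-a2 and Neurog1 were at 0 in at least 1 library of both tables, and Lum in the ShhN IUE table. The part of these cells in the result was not tested.

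SmoM2 and ShhN IUE were compared directly over the 43 of the 51 genes whose wild-type counts agree between tables, with 9 libraries in the fit. In that fit 1 gene rose, 3 fell and 39 did not pass, where 8.45% of all 12349 genes tested rose and 8.07% fell. The median log2 fold change of SmoM2 over ShhN IUE was -0.19, beside -0.0057 over all genes tested, and 11 of the 43 values were positive. All 3 SmoM2 libraries lay below all 3 ShhN IUE libraries for 11 genes and above them for 2, where 20.6% and 20.4% of all genes tested did so. For Mki67, the log2 fold change was -0.19 ± 0.15 (adjusted p = 0.415), with 168, 203 and 255 CPM in SmoM2 libraries, against 217, 235 and 265 CPM in ShhN IUE libraries. CPM in this fit are relative to the agreeing genes alone and so are higher than those above.

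Pttg1 gave the largest difference. It had 8.48, 8.48 and 8.94 CPM in SmoM2 libraries, against 19.1, 15.5 and 14.1 CPM in ShhN IUE libraries, a log2 fold change of -0.91 ± 0.19 (adjusted p = 0.0108). The SmoM2 libraries lay close together and far below the lowest ShhN IUE library. Cdc25b had 53.8, 46.8 and 62.0 CPM in SmoM2 libraries, against 75.1, 67.5 and 86.3 CPM in ShhN IUE libraries (-0.49 ± 0.13, adjusted p = 0.0254). Incenp had 48.4, 46.0 and 54.6 CPM in SmoM2 libraries, against 62.0, 71.0 and 67.0 CPM in ShhN IUE libraries (-0.42 ± 0.12, adjusted p = 0.0318). None of these overlapped. Ncapd2 had 183, 189 and 227 CPM in SmoM2 libraries, against 136, 146 and 175 CPM in ShhN IUE libraries, and rose by 0.39 ± 0.12 (adjusted p = 0.0497). Ncapd2 in SmoM2 was above ShhN IUE in all libraries. Anln and Cdc25c, at -0.57 ± 0.21 (adjusted p = 0.0874) and -0.56 ± 0.22 (adjusted p = 0.11), and Spc25 and Plk4, at 0.46 ± 0.16 (adjusted p = 0.0706) and 0.39 ± 0.20 (adjusted p = 0.199), did not pass. Pbk and Bub3 were at 0.20 ± 0.15 and 0.20 ± 0.12.

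**Figure D5:**
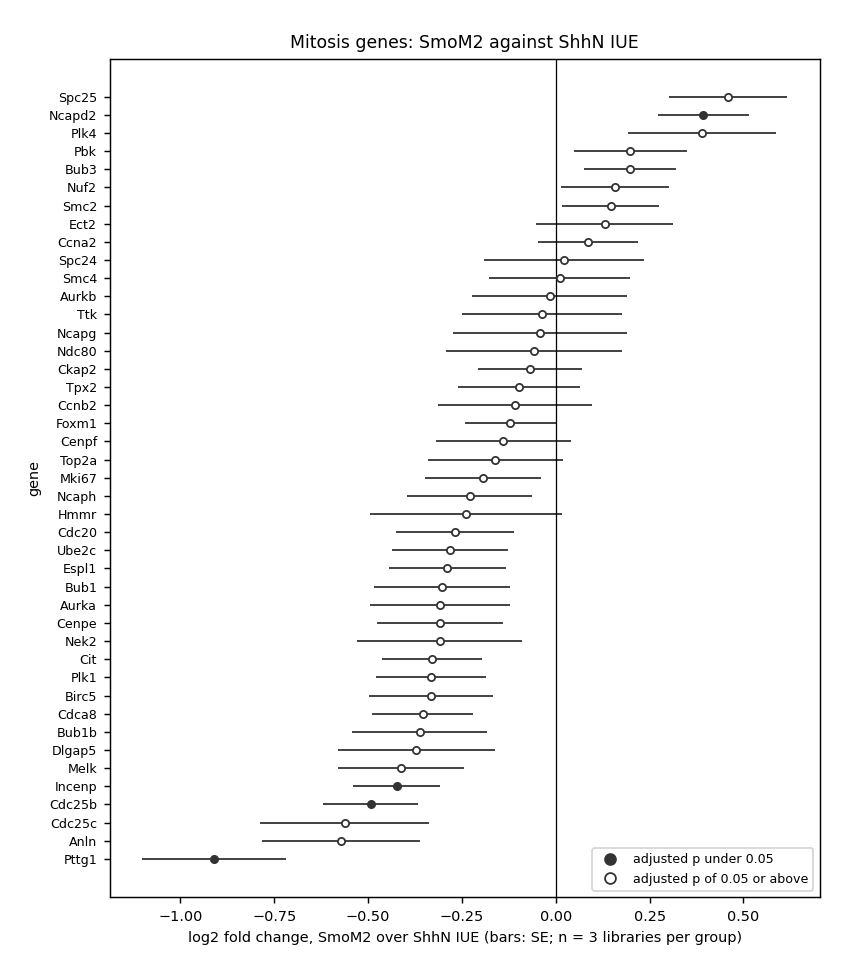
Log2 fold change of SmoM2 over ShhN IUE (horizontal axis, bars show SE, n = 3 libraries per group) for the 43 genes tested; filled points have an adjusted p under 0.05. Ncapd2 at 0.39 is the only filled point above 0, and Incenp, Cdc25b and Pttg1 are those below it.

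These 4 calls differed in how often they held over 15 alternatives. Pttg1 passed in 13 of 15 and missed without ShhN IUE library 1 or SmoM2 library 2, with adjusted p up to 0.0576 and a log2 fold change between -1.002 and -0.77. Cdc25b passed in 11 of 15 and missed without ShhN IUE library 1 or 3 or SmoM2 library 1 or 2 (adjusted p up to 0.104). Incenp passed in 9 and missed when any of the 6 SmoM2 or ShhN IUE libraries was left out (up to 0.129). Ncapd2 passed in 6, and missed among others without ShhN IUE library 1 or 2, any SmoM2 library or wild-type library 3 (up to 0.188).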

How the data were processed

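Counts and FPKM were used as deposited in 2 tables, each holding ShhN IUE or SmoM2 with the same 3 wild-type libraries. Per the file headers, the tables give for each gene and library a read count, an FPKM value, and the authors' p-value and q-value. Per the submitters' processing notes, the tools were edgeR, HISAT2 and StringTie, with mm10 and GRCm38.p4 as builds. Strand use and the treatment of reads that map to several places are not given in the sources used here.

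The test of counts was edgeR's quasi-likelihood F test (edgeR 4.0.16, R 4.3.3), after TMM scaling and filterByExpr by group, with Benjamini-Hochberg adjustment over all genes tested. SE is the absolute log2 fold change over the square root of F. CPM are TMM-scaled counts per 1000000. Since the tables quantify the wild-type libraries differently, each group was tested within its own table. SmoM2 was tested against ShhN IUE over 9 libraries, on the 16195 genes whose summed wild-type counts agree (log2 ratio, with 5 added, within 0.1), each wild-type count being the rounded mean of the tables. Intervals and errors cover the spread between libraries only.

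The 51 genes, the companion and marker lists and the tests were chosen with earlier results of these data known. Values in every library are given for 14 chosen genes and for genes that missed the threshold or differed between SmoM2 and ShhN IUE; the 5 largest and smallest fold changes and, in each companion list, the 2 smallest adjusted p and every fall are named. Alternatives were RLE scaling, no expression filter, DESeq2 1.42.0, a replicate block, agreeing genes alone, and leaving out each library in turn. One marker is not reported here.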

Additional observations from a re-analysis of the deposited data

How the results depend on the processing

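The count of the 51 mitosis genes that rose against wild type was 42 to 46 in ShhN IUE and 36 to 46 in SmoM2 over every alternative with all 51 genes, and with agreeing genes alone it was 39 of 43 in ShhN IUE and 38 of 43 in SmoM2. None fell against wild type, and no gene called in any of the comparisons changed sign. Among those that did not pass against wild type, Bub3 ran from -0.21 to 0.03 and Plk4 from -0.24 to 0.09 in ShhN IUE, and Cit from -0.12 to 0.13 in SmoM2. Over all genes, leaving out single libraries gave 3251 to 4624 changed genes in ShhN IUE against 5380 with all libraries, 1334 to 3010 in SmoM2 against 3112, and 834 to 2336 in SmoM2 against ShhN IUE, where all libraries gave 2040. Keeping all genes in both tables in that comparison gave 3457. As reported, 1 mitosis gene rose and 3 fell in SmoM2 against ShhN IUE. None rose with RLE scaling, the 6 libraries alone or all genes in both tables (0 each), and leaving out single libraries gave 0 to 1 that rose and 0 to 4 that fell. The cause was not tested, beyond the loss of a library in those settings. Over all genes, same-numbered libraries did not deviate together in every pair (r of 0.26, -0.32 and -0.11 for ShhN IUE with wild type), so the replicate number was not taken as a pairing, although library 3 had the highest sum of the 51 genes in each group. With it as a replicate block, 44 mitosis genes rose in ShhN IUE and 44 in SmoM2, and 1 rose and 3 fell in SmoM2 against ShhN IUE; over all genes 3962, 2468 and 1499 changed. Counts of the 51 genes ran from 26 to 2791 per library in the ShhN IUE table and from 24 to 4396 in the SmoM2 table, the lowest being Spc24 in wild type.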
